A study of Mus musculus with 4 samples.

Results

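Transcripts of polyunsaturated fatty acid desaturation, elongation and acyl transfer were examined in mouse liver through 8 genes defined by their symbols, Fads1, Fads2, Elovl1, Elovl2, Elovl3, Elovl5, Lpcat3 and Acsl4. All 8 were found, each as 1 row, among the 24138 rows of the deposited expression table. Bulk RNA sequencing had been done on 4 livers from male C57BL/6J mice aged 18 weeks, every one of which had received the FAT-MASH diet, used to model metabolic dysfunction-associated steatohepatitis (MASH), and resolvin D1 (RvD1). The composition of the diet, the dose of RvD1 and the time of day of collection were not given in the sources used here. The livers were taken as 1 per animal, which the labels do not state. They form 1 group with no untreated, diet-only or vehicle-treated counterpart analysed here, so the values give the level of each transcript and its spread between animals, and no effect of diet or RvD1 can be read from them. The livers are numbered 1 to 4 as in the labels.

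Resolvins of the D series are made from docosahexaenoic acid (DHA), which the liver can build from dietary alpha-linolenic acid by alternating desaturation and elongation in the endoplasmic reticulum, followed by a shortening step in peroxisomes. Fads2 encodes the desaturase that acts first on the plant-derived precursors, Elovl5 an elongase of the next step, Fads1 the desaturase that follows it, and Elovl2 the elongase that extends the longer intermediates towards DHA. Acsl4 encodes an acyl-CoA synthetase with a preference for long polyunsaturated fatty acids, and Lpcat3 an acyltransferase that places such acids into membrane phospholipids. Elovl1 and Elovl3 encode elongases known mainly for saturated and monounsaturated very long chains, so the set is wider than the synthesis of polyunsaturated acids alone.

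RefSeq promoter windows on GRCm38.p6 were found for 6 of the 8 genes, all but Fads1 and Elovl3, and those for Fads2, Elovl1, Elovl2 and Elovl5 are shown because these genes split into pairs that deviate in opposite directions in liver 3, as described further on. Each sequence covers the 250 bases before the start site, written 5′ to 3′ on the strand of the gene. Capitals mark matches, on either strand, to 5 motifs: the CCAAT box (CCAAT), the E-box (CACGTG), the GC box (GGGCGG), the nuclear receptor half-site (AGGTCA) and the core of a sterol regulatory element (TCACNCCAC). The windows are chr19:10101504-10101753 on the minus strand for Fads2, chr4:118427843-118428092 on the plus strand for Elovl1, chr13:41220404-41220653 on the minus strand for Elovl2 and chr9:77917115-77917364 on the plus strand for Elovl5.
Fads2: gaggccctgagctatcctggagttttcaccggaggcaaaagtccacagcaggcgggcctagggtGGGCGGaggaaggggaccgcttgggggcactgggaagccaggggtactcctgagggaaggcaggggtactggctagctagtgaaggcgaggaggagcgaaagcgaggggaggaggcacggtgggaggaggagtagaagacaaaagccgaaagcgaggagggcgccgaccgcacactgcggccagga
Elovl1: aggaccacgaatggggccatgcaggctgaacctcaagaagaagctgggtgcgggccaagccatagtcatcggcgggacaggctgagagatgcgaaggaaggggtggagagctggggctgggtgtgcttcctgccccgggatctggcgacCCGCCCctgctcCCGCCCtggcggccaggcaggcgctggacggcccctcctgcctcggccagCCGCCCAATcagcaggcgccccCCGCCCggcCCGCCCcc
Elovl2: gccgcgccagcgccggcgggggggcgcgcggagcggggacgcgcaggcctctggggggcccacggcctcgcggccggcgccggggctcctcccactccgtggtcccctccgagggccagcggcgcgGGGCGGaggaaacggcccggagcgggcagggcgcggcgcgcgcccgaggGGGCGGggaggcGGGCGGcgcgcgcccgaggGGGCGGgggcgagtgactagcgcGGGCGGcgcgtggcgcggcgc
Elovl5: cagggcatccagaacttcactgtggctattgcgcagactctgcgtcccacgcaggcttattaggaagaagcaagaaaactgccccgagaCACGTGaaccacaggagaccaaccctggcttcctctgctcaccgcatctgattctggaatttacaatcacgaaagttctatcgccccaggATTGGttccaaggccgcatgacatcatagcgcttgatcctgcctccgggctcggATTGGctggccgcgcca

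The Fads2 window held 1 GC box and the Elovl2 window 5, in a window that is 87.2% G and C. The Elovl1 window held 5 GC boxes and 1 CCAAT box, the latter overlapping a GC box. The Elovl5 window had no GC box, but 2 CCAAT boxes, both on the opposite strand, and 1 E-box. Neither the half-site nor the sterol core was found in these 4 windows, which says only that those letters are not there. Among 32851 RefSeq windows of the same length, a GC box was present in 32.7%, a CCAAT box in 33.8%, an E-box in 6.02%, the half-site in 14.0% and the sterol core in 1.05%. RefSeq lists a second start for Elovl1 and for Elovl2, whose windows are not shown. The window of the second Elovl1 start held 1 half-site and 2 GC boxes, and that of the second Elovl2 start 0 matches to the 5 motifs.

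All values are FPKM, fragments per kilobase of transcript relative to all mapped fragments, so the levels of different genes can be set side by side per length. The depth, estimated from the value of 1 fragment in weakly expressed genes, was between 18.8 and 20.1 M fragments. Of the liver markers listed, 9 of 10 hepatocyte genes were expressed in every liver and their summed level was between 27570 and 38420 FPKM. Apoa1, at 12970.0 ± 1592 FPKM (SD, n = 4), led them, and Tat, an amino acid enzyme at 335 to 780.2 FPKM, was widest in range. Alb, which liver expresses strongly, is listed at 0 in all 4 livers, so a 0 in this table can be a failed estimate and is not read as absence. Summed macrophage markers were between 191 and 275 FPKM, with Lyz2 highest (114 ± 19.7 FPKM, SD, n = 4) and Cd5l widest in range (29.8 to 56.2 FPKM). Stellate and fibroblast markers summed to between 238 and 367 FPKM, led by Dcn at 148 ± 32.4 FPKM, and endothelial markers to between 47.2 and 61.6 FPKM, led by Clec4g at 29.3 ± 2.96 FPKM (each SD, n = 4). In whole liver, fewer cells of a type and less RNA per cell cannot be told apart.

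The 8 genes spanned a wide range of levels, with Fads2 highest, at 1443 ± 221 FPKM, and Elovl3 lowest, at 7.44 ± 1.88 FPKM (each SD, n = 4). Together they summed to 2763, 2569, 2832 and 2919 FPKM in livers 1 to 4, and Fads2 alone made up 47.1%, 47.8%, 60.4% and 52.6% of that sum. The order by mean was Fads2, Elovl5, Fads1, Elovl2, Lpcat3, Elovl1, Acsl4 and Elovl3. For 6 of the 7 neighbouring pairs the lowest liver of the higher gene lay above the highest liver of the lower one. The exception was Fads1 and Elovl2, whose ranges overlapped and whose means differed 1.10-fold.

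**Figure D1:**
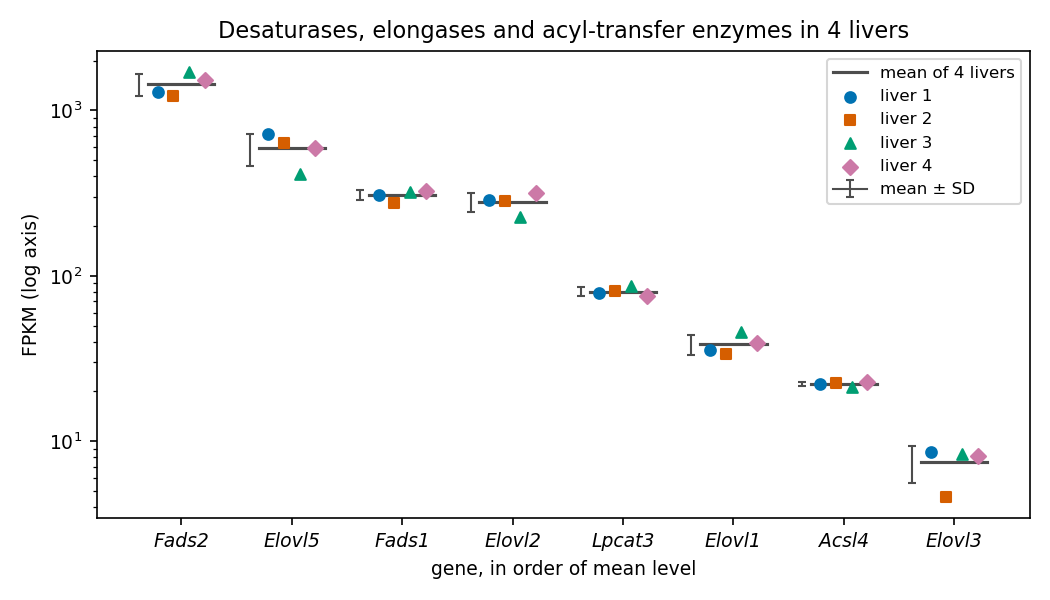
FPKM (log axis) of each gene in livers 1 to 4, with the mean as a horizontal line and the SD as a bar (n = 4). The genes fall from Fads2, between 1227 and 1709 FPKM, to Elovl3, between 4.63 and 8.57 FPKM, and only Fads1 and Elovl2 overlap with a neighbour in the order.

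The desaturases Fads1 and Fads2 lie on chromosome 19, pointing away from each other. Fads2 (XLOC_010762, chromosome 19, 10064164 to 10101503, minus strand) was measured at 1301, 1227, 1709 and 1536 FPKM in livers 1 to 4. The highest value was in liver 3 and the lowest in liver 2, a 1.39-fold range around a mean of 1443 ± 221 FPKM (SD, n = 4). That mean held rank 51 of the 24138 rows, a ranking in which rows listed at 0, such as that of Alb, stand at the bottom. Fads1 (XLOC_010359, chromosome 19, 10182888 to 10196872, plus strand) begins 81.4 kb from the start of Fads2. It was measured at 310, 277, 322 and 324 FPKM, with liver 2 below the rest and the rest nearly level. Its mean was 308 ± 21.9 FPKM (SD, n = 4) and its range 1.17-fold. With each liver rescaled by its median ratio to the gene means, or to a common total, the highest liver of Fads1 became liver 3, while liver 2 remained the lowest for both desaturases.

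Fads1 stood at 0.238, 0.226, 0.189 and 0.211 of the level of Fads2 in livers 1 to 4. The log2 ratio was -2.22 ± 0.145 (SD, n = 4), lowest in liver 3, where Fads2 was highest and Fads1 was close to its values in livers 1 and 4. The third gene of the cluster, Fads3, a relative whose substrates are less well defined, ends 4.49 kb from Fads2 and was measured at 8.84, 4.85, 6.65 and 4.32 FPKM. Its order of livers was different, with liver 1 highest and liver 4 lowest. The more distant relative Fads6 was at 29.9 ± 3.43 FPKM (SD, n = 4) and, like Fads2, was highest in liver 3 and lowest in liver 2, although scaling to a common total moved its lowest value to liver 4. Scd1, the main stearoyl-CoA desaturase of liver, is listed at 0 in all 4 livers, as Alb is, and no level is read from it. Scd2 was at 9.04 ± 1.21 FPKM (SD, n = 4).

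Among the elongases, the pair that acts on polyunsaturated chains was far more abundant than the pair that acts on saturated ones. Elovl5 (XLOC_022082, chromosome 9, 77917365 to 77984519, plus strand) was measured at 718, 640.2, 412 and 597 FPKM in livers 1 to 4. Liver 3 stood lowest, at 1.45-fold below the next liver, and liver 1 highest. The mean was 592 ± 130.1 FPKM (SD, n = 4) and the range 1.74-fold. Elovl2 (XLOC_005695, chromosome 13, 41182382 to 41220403, minus strand) was measured at 289, 284, 227 and 316 FPKM. Its lowest value was again in liver 3, 1.25-fold below the next, while the other livers lay close together. The mean was 279 ± 37.45 FPKM (SD, n = 4) and the range 1.39-fold.

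Elovl2 stood at 0.403, 0.443, 0.552 and 0.530 of the level of Elovl5. The log2 ratio was -1.06 ± 0.214 (SD, n = 4), so the 2 genes were both lowest in liver 3, but Elovl5 by more. Elovl5 supplied 64.1 ± 4.04% and Elovl2 30.7 ± 2.64% (SD, n = 4) of the summed FPKM of the 4 elongases in the set.

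Elovl1 (XLOC_014575, chromosome 4, 118428093 to 118437343, plus strand) was measured at 35.7, 33.6, 45.5 and 39.1 FPKM in livers 1 to 4. Like Fads2, it was highest in liver 3 and lowest in liver 2. The range was 1.35-fold and the mean 38.5 ± 5.17 FPKM (SD, n = 4). Its span in the table is also that of Cdc20, which was at 0.664 ± 0.316 FPKM (SD, n = 4). Elovl3 (XLOC_010572, chromosome 19, 46131899 to 46148325, plus strand) was the least abundant of the set, at 8.57, 4.63, 8.38 and 8.19 FPKM. Livers 1, 3 and 4 lay within 1.05-fold of each other and liver 2 was 1.77-fold below the nearest of them. The mean was 7.44 ± 1.88 FPKM (SD, n = 4). Elovl3 was the only 1 of the 8 genes with a liver past the 95% critical value of Dixon's ratio, the gap to the nearest liver over the whole range, against 5.46% of all expressed genes. Scaling to a common total took that mark from Elovl3 and gave it to Elovl2. At the estimated depth and the length of its longest transcript, these values correspond to roughly 289, 150.3, 275 and 259 fragments, which is approximate because no counts are in the table. The span listed for Elovl3 is shared with Pitx3, which was listed at 0, 0, 0.0785 and 0.0366 FPKM.

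Of the enzymes that activate and place polyunsaturated acids, Acsl4 had the narrowest range of the 8 genes under all 3 scalings, and Lpcat3 the next on the deposited scale only. Acsl4 (XLOC_023952, chromosome X, 142317993 to 142390535, minus strand) had 22.2, 22.6, 21.3 and 23.0 FPKM, in the same order of livers. This is a 1.08-fold range around 22.3 ± 0.693 FPKM (SD, n = 4). Its SD of log2(FPKM + 1), a scale on which changes of weakly expressed genes look smaller, was 0.04, at percentile 2.06 among the 10541 genes called expressed (mean of 1 FPKM or more). No liver stood apart, and which liver was highest or lowest changed with the scaling. Lpcat3 (XLOC_017534, chromosome 6, 124663104 to 124712178, plus strand) was measured at 78.2, 80.9, 86.6 and 75.7 FPKM. Its range was 1.14-fold, its mean 80.4 ± 4.68 FPKM (SD, n = 4) and its SD on the log2 scale 0.08, at percentile 11.8. After median-ratio scaling its range was 1.20-fold against 1.16-fold for Fads1, and after scaling to a common total 1.26-fold against 1.18-fold. The table gives Emg1, at 22.9 ± 0.737 FPKM (SD, n = 4), the same span. Acsl4 stood at 0.284, 0.279, 0.246 and 0.303 of the level of Lpcat3.

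The spread between livers of the set was near that of other genes as a whole, with wide and narrow members at both ends. The median SD of log2(FPKM + 1) was 0.19 over the 8 genes and 0.16 over all expressed genes. This order rests on livers 2 and 3, since without liver 2 the medians were 0.14 and 0.15, and without liver 3 they were 0.11 and 0.14. A range of at least 1.5-fold was found for 2 of the 8, Elovl3 and Elovl5, against 28.4% of all expressed genes, a share near the background. The SD of Elovl3 was 0.37 (percentile 95.3) and that of Elovl5 was 0.35 (percentile 94.2), followed by Fads2 at 0.22, Elovl2 at 0.20, Elovl1 at 0.18 and Fads1 at 0.11. Within the tenth of genes closest in level, Elovl3 was at percentile 96.3 and Elovl5 at percentile 93.5. Each of these ranges rests on a single liver, since without liver 2 that of Elovl3 was 1.05-fold, and without liver 3 that of Elovl5 was 1.20-fold.

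**Figure D2:**
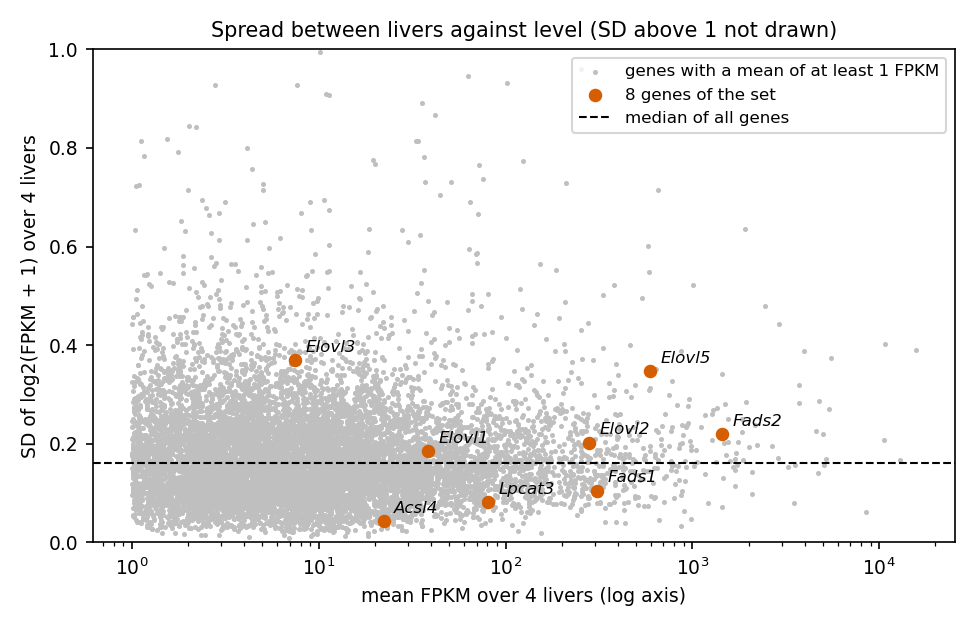
SD of log2(FPKM + 1) over the 4 livers against mean FPKM (log axis) for the expressed genes (mean of 1 FPKM or more) in grey and the 8 genes in orange, with the median of all genes as a dashed line. Elovl3 and Elovl5, with an SD of 0.37 and 0.35, lie high in the cloud at very different levels. Acsl4 lies near its lower edge, and Lpcat3 lies low in it, at percentile 11.8.

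The genes of the set had their lowest values in different livers. Of the 8 genes, 4 were lowest in liver 2, against 29.9% of all expressed genes, and 3 were lowest in liver 3, against 31.4%. Those lowest in liver 2 were Fads1, Fads2, Elovl1 and Elovl3, at -0.15, -0.22, -0.18 and -0.55 from their means of log2(FPKM + 1). In liver 3, Fads2 and Elovl1 were highest, at 0.26 and 0.24 above their means, while Elovl5 and Elovl2 were lowest, at -0.49 and -0.29. These lowest and highest livers of Fads2, Elovl1, Elovl2 and Elovl5 held under both alternative scalings. In liver 4, 7 of the 8 genes, all but Lpcat3, were above their mean as deposited, against 60.8% of all expressed genes. The count there was 4 after median-ratio scaling (49.99% of all expressed genes) and 3 after scaling to a common total (38.1%). The median deviation of the 8 genes was 0.00, -0.07, 0.09 and 0.06 in livers 1 to 4, beside -0.01, -0.02, -0.01 and 0.04 over all expressed genes. Both scalings brought the value of liver 4 to 0.01 or below. The value of liver 3 rose to 0.11 after median-ratio scaling and to 0.13 after scaling to a common total.

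**Figure D3:**
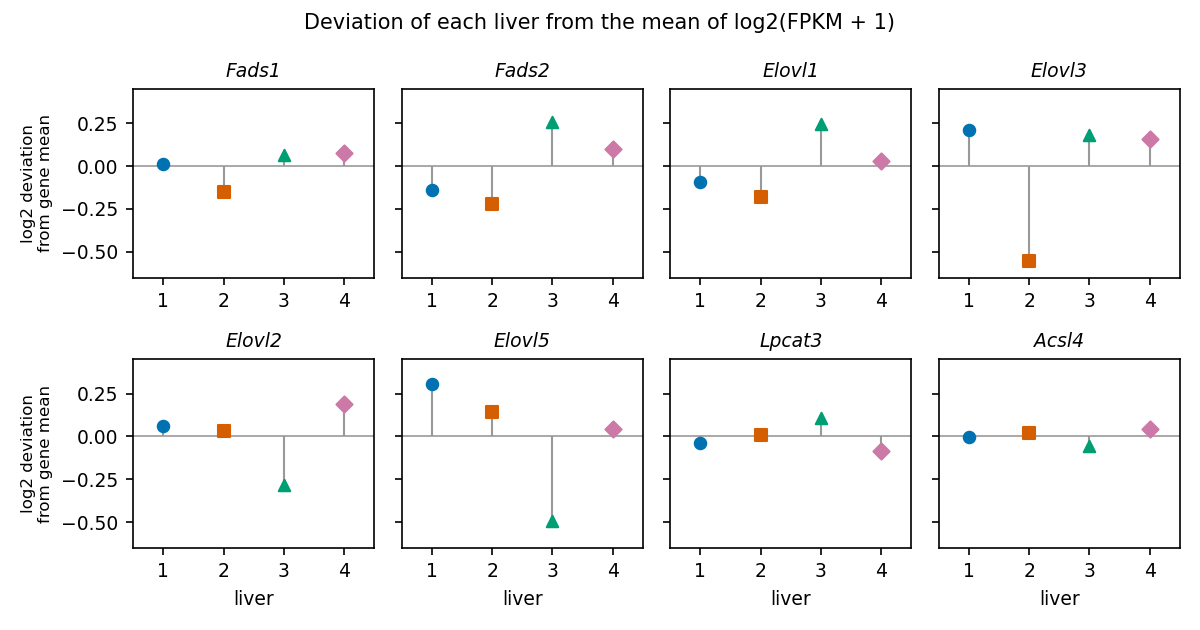
Deviation of each liver (horizontal axis, livers 1 to 4) from the gene's mean of log2(FPKM + 1), for each of the 8 genes on a common scale. Fads2 and Elovl1 are highest and Elovl2 and Elovl5 lowest in liver 3, Elovl3 is lowest in liver 2 at -0.55, and Lpcat3 and Acsl4 stay close to 0.

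The opposite deviations gave the widest ratio examined within the set, that of the first desaturase to the following elongase, which was chosen after the values were seen. Fads2 stood at 1.81, 1.92, 4.15 and 2.57 times the level of Elovl5 in livers 1 to 4. The ratio varied 2.29-fold, and its log2 value was 1.30 ± 0.548 (SD, n = 4). That it varied more than either gene alone follows from choosing a pair with opposite deviations, and not every pair of the set was examined. Without liver 3 it varied 1.42-fold, with an SD of 0.272 on the log2 scale. Liver 3 was highest and liver 4 next, with livers 1 and 2 nearly equal. Ratios within a liver do not depend on how the livers are scaled. The ratios of Fads1 to Fads2, Elovl2 to Elovl5 and Acsl4 to Lpcat3 varied 1.26-fold, 1.37-fold and 1.23-fold.

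**Figure D4:**
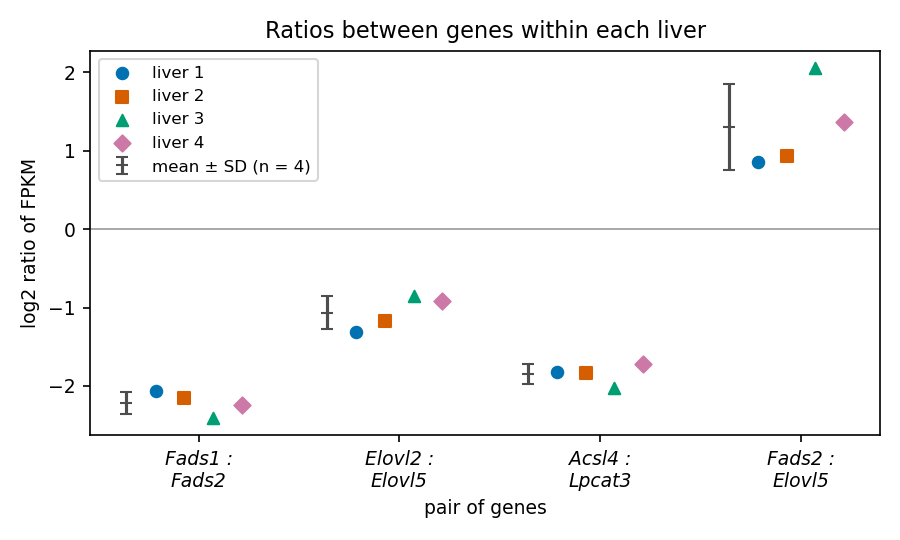
Log2 ratio of FPKM for 4 pairs of genes within each of livers 1 to 4, with the mean and SD (n = 4) as bars to the left. The ratio of Fads2 to Elovl5 reaches 2.05 in liver 3 against 0.86 in liver 1, while the other 3 ratios stay within narrower ranges.

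The elongases work in a cycle with a ketoacyl reductase, dehydratases and an enoyl reductase, and these partners were examined from a list of 6 genes, of which 5 were expressed. The reductase gene Hsd17b12 had 118, 98.2, 74.2 and 122 FPKM, livers taken in order, so that it too was lowest in liver 3, with a 1.64-fold range. Hacd1, a dehydratase of the cycle, was at 4.99, 5.29, 3.07 and 4.92 FPKM, with liver 3 apart from the rest. The more abundant dehydratases varied little, Hacd3 at 69.7 ± 3.36 FPKM and Hacd2 at 16.6 ± 1.08 FPKM, and Tecr, the enoyl reductase, was at 272 ± 27.1 FPKM (each SD, n = 4) with its highest value in liver 3. In all, 4 of the 5 partners were lowest in liver 3 as deposited, against 31.4% of all expressed genes. The count was 3 after median-ratio scaling (29.2% of all expressed genes) and 2 after scaling to a common total (25.3%), where Hsd17b12 and Hacd1 stayed lowest there. A range of at least 1.5-fold was found for 2 of the 5, against 28.4% of all expressed genes.

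Elovl6, an elongase of saturated chains, was measured at 49.9, 47.7, 62.7 and 36.1 FPKM, highest in liver 3 as Fads2 was, but lowest in liver 4. Elovl4 is listed at 0 and Elovl7 was between 0.412 and 0.690 FPKM. Among the genes that carry electrons to the desaturases, Cyb5a was most abundant at 1113 ± 178 FPKM (SD, n = 4), lowest in liver 2, and 0 of 4 genes reached a 1.5-fold range, against the same 28.4%. In the peroxisomal step, Scp2, a thiolase and lipid carrier, led with 1875 ± 222 FPKM (SD, n = 4). Abcd2, a peroxisomal importer of very long chains, was at 7.14, 8.22, 3.94 and 6.84 FPKM, lowest in liver 3. It was 1 of 2 genes among 9 listed for this step with a 1.5-fold range, again beside 28.4% of all expressed genes.

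Of the other acyl-CoA synthetases, Slc27a2 was highest at 889 ± 140.3 FPKM (SD, n = 4). Acsl3 was at 17.3, 21.5, 10.5 and 14.7 FPKM, a 2.04-fold range that contrasts with the 1.08-fold range of Acsl4 in the same libraries. Of 7 expressed acyltransferases of the Lpcat, Mboat and Agpat families, 3 had a 1.5-fold range, against 28.4% of all expressed genes. Agpat2, a triglyceride-route enzyme, was highest at 238 ± 43.9 FPKM, and Agpat3, which is known for a preference for DHA, had 92.3 ± 6.65 FPKM (each SD, n = 4), a level close to that of Lpcat3. Of 7 expressed genes of phospholipases and DHA transport, 3 likewise had such a range (28.4% of all expressed genes). Mfsd2a, the carrier of DHA in lysophospholipid form, was at 120, 89.7, 147 and 96.5 FPKM, highest in liver 3 as Fads2 was. The 8 lists of pathway genes other than the set held 51 expressed genes, of which 16 had a 1.5-fold range, a share near the 28.4% of all expressed genes. Their median SD was 0.21, beside 0.16 over all expressed genes.

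**Figure D5:**
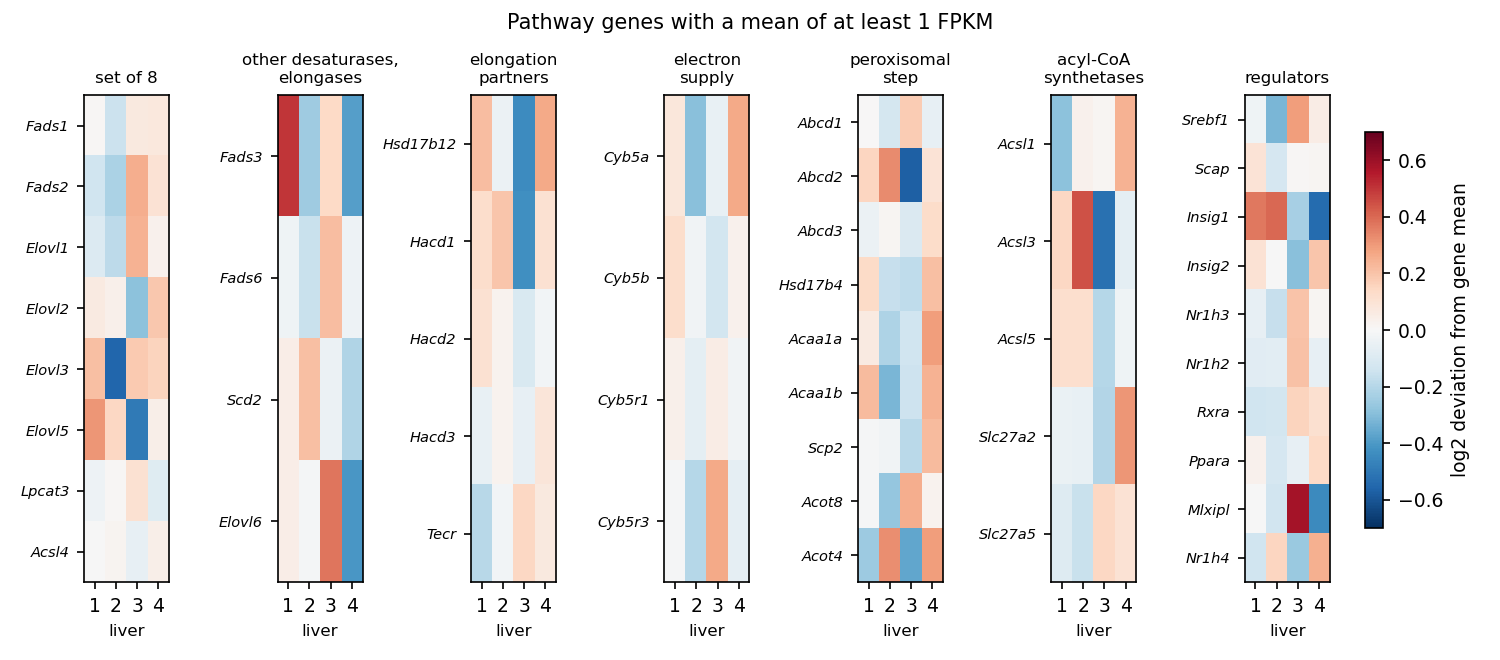
Log2 deviation of each liver (columns 1 to 4) from the gene's mean of log2(FPKM + 1), in red for higher and blue for lower, for the 8 genes and for the expressed genes of 6 pathway lists. In liver 3, Elovl5, Elovl2, Hsd17b12, Hacd1 and Abcd2 are blue while Fads2, Elovl1, Elovl6 and Srebf1 are red.

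Transcription of Fads1, Fads2 and Elovl5 is known to respond to SREBP1c, to the liver X receptors and to PPAR alpha. Srebf1, which encodes SREBP1c, was measured at 166, 135, 207 and 175 FPKM in livers 1 to 4, with liver 3 highest and liver 2 lowest, the same extremes as Fads2 and Elovl1 and not those of Elovl5. Nr1h3, the liver X receptor gene most expressed in hepatocytes, was at 49.8, 46.3, 59.8 and 52.4 FPKM, with the same extremes as Srebf1. Ppara was at 61.9, 55.7, 58.1 and 66.8 FPKM, with the extremes of Fads1 as deposited. Their means were 52.1 ± 5.72 FPKM and 60.6 ± 4.83 FPKM (each SD, n = 4). Insig1, which retains SREBP precursors in the endoplasmic reticulum, was at 184, 188, 121 and 97.4 FPKM. Mlxipl, which encodes the carbohydrate-responsive factor ChREBP, was at 53.0, 48.2, 79.9 and 38.7 FPKM, with liver 3 highest and liver 4 lowest. Of 10 regulators, 3 had a 1.5-fold range, near the 28.4% of all expressed genes, and 5 were highest in liver 3, beside 26.8% of all expressed genes. The part of these regulators in the levels of the set was not tested.

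Of 9 expressed lipogenic targets of SREBP1c, 6 were highest in liver 3 under all 3 scalings, the liver in which Fads2, Elovl1 and Srebf1 were highest, against 26.8% of all expressed genes as deposited. The lowest liver of most of these targets was not that of Fads1 and Fads2, which was liver 2. Of the 9 targets, 7 were lowest in liver 4, against 18.1% of all expressed genes, as were Fads3 and Scd2 among the other desaturases and Lpcat3, 1 of the 8 genes of the set. After scaling to a common total all 9 of the targets and 2 of the 8 genes were lowest in liver 4, against 33.0% of all expressed genes. Thrsp, a lipogenic regulator and the highest of that list, was at 1215, 1267, 2012 and 1289 FPKM, and Pnpla3, a lipase widest in range, at 1.66, 1.79, 2.04 and 0.789 FPKM. Of 7 liver X receptor targets, 5 were highest in liver 4, against 33.3% of all expressed genes (2 after scaling to a common total, against 15.6%). Among them Abcg5, a sterol exporter, was at 119.9 ± 14.1 FPKM, and Mylip, which promotes degradation of the low-density lipoprotein receptor, at 3.07 ± 0.610 FPKM (each SD, n = 4). Of 9 PPAR alpha targets, 6 had a 1.5-fold range, against 28.4% of all expressed genes. Cyp4a10, a fatty acid omega-hydroxylase with close paralogs that the read assignment could mix with it, was at 229 ± 21.3 FPKM (SD, n = 4), and Pdk4, a kinase of pyruvate dehydrogenase, at 3.73, 5.66, 3.36 and 1.58 FPKM. Whether the set shares the regulation of any of these targets was not tested.

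Elovl3 is known in mouse liver as a male-biased gene with a daily rhythm, and genes of both kinds were set beside it. Of 12 male-biased genes, 9 were lowest in liver 2, the low liver of Elovl3, under all 3 scalings, against 29.9% of all expressed genes, with a median deviation of -0.56 there. Mup20, a urinary protein gene, was at 11388, 7078, 10859 and 13664 FPKM, lowest in liver 2 as Elovl3 was. Hsd3b5, a male-specific steroid enzyme, was at 1.13, 1.34, 4.26 and 3.58 FPKM, lowest in liver 1, so that not every gene of the kind followed the pattern of Elovl3. Of 13 expressed clock genes, 5 were lowest in liver 2, a share near the 29.9% of all expressed genes. Dbp, an output factor of the clock, was at 118, 103, 102 and 93.6 FPKM, Nr1d1, a repressor within the clock, at 52.7, 39.3, 25.4 and 23.9 FPKM, and Per1 at 7.86, 6.41, 11.6 and 7.43 FPKM. All 10 acute-phase genes were highest in liver 2, against 22.0% of all expressed genes, with Saa1 at 139, 2135, 45.6 and 131 FPKM, its near-identical neighbour Saa2 at 107, 2106, 42.6 and 96.1 FPKM, and Hpx at 2474, 4113, 2006 and 3069 FPKM. Of the 10 acute-phase genes, 9 were lowest in liver 3, the low liver of Elovl5 and Elovl2, against 31.4% of all expressed genes. After scaling to a common total 8 were lowest there, against 25.3%. The part of these genes in the low values of Elovl3, Elovl5 and Elovl2 was not tested.

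Markers of other cells also differed between livers. Stellate and fibroblast markers were highest in liver 2 for 7 of 10 genes, against 22.0% of all expressed genes. They were lowest in liver 4 for 5 of 10 (18.1% of all expressed genes), and for 7 under either alternative scaling (24.6% and 33.0%). Macrophage markers were lowest in liver 3 for 6 of 8 expressed genes, against 31.4%, and highest in liver 4 for 6 of 8, against 33.3%. After scaling to a common total 2 of the 8 were highest in liver 4, against 15.6% of all expressed genes, and 6 were highest in liver 2, against 28.4%. Endothelial markers were highest in liver 2 for 5 of 8 genes (22.0% of all expressed genes) and above their mean there for 7 of 8, against 45.1%. Hepatocyte markers were above their mean in liver 2, the low liver of Fads1, Fads2, Elovl1 and Elovl3, for 1 of 9 expressed genes, against 45.1% of all expressed genes. They were highest in liver 4 for 6 of 9, against 33.3%, and for 3 of 9 after scaling to a common total, against 15.6%. Lum, a matrix gene, was between 14.03 and 29.9 FPKM, and Kdr, an endothelial receptor, between 2.04 and 5.06 FPKM. Spp1 led the cholangiocyte list at 191 ± 18.4 FPKM (SD, n = 4), and Sox9 was between 3.37 and 5.22 FPKM. Lymphocyte and neutrophil markers summed to at most 5.35 and 18.6 FPKM, with Nkg7 and S100a9 highest. Of the adipocyte markers, Plin1, Lep and Retn are listed at 0 and no level is read from them, and the others, led by Cfd, summed to at most 7.03 FPKM. Hba-a1, a haemoglobin gene of red cells, was at 814, 661, 308 and 535 FPKM, the same order of livers as Elovl5. Alas2, of the same list, was at 55.8, 43.8, 64.0 and 57.0 FPKM, highest in liver 3. The part of these cells in the levels of the set was not tested.

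Genes whose deviations over the 4 livers were closest to those of the 2 wide-ranging elongases were sought among 6537 genes averaging 5 FPKM or more, by the root mean square difference of the log2 deviations. Closest to Elovl3 were Alkbh7 (difference 0.07), with 9.77, 5.77, 10.97 and 9.72 FPKM in order of liver, Lect2 (0.07), at 166, 109.7, 163 and 168 FPKM, and Letm1 (0.08), at 33.4, 22.5, 33.5 and 35.4 FPKM. All of them were lowest in liver 2. In total 6 genes lay within 0.1 of Elovl3. Closest to Elovl5 were Snrnp48 (0.04), at 6.42, 5.61, 3.48 and 5.04 FPKM, Cyp2c38 (0.05), at 6.72, 6.46, 3.45 and 5.53 FPKM, and Anxa3 (0.05), at 6.21, 5.84, 3.30 and 4.85 FPKM. Within 0.1 of Elovl5 lay 27 genes, or 0.413% of those searched, and with only 4 livers many genes can share such an order.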

How the data were processed

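Per the submitters' processing notes, the tools used upstream include FastQC 0.10.1, Trim Galore 0.6.3, cutadapt, STAR 2.7.6a and Cufflinks 2.2.1 with the build mm10; the annotation and the settings are not given in the sources used here. Per the labels' protocols, libraries were made from total liver RNA by poly(A) enrichment. The authors' deposited values were read as FPKM, as Cufflinks writes them, since they are not whole numbers and their sums differ between libraries; 0 value columns were left unmatched. Starts are printed with 1 added, after which 52.0% of 22565 symbols had the RefSeq start. Depth was estimated from single-transcript genes over 800 bases in GENCODE vM21, from the product of FPKM and length less 200 bases between 25 and 75, and is approximate.

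Values were analysed as log2(FPKM + 1) with Python 3.11.15, numpy 2.4.6 and pandas 2.3.3. A gene was called expressed if it averaged 1 FPKM or more. With 1 group there was no test between groups and no p-value. A liver was called outlying where its gap to the nearest other, divided by the range, exceeded Dixon's 95% critical value at n = 4. The procedures were tested on simulated data. Alternatives were other pseudocounts, filters and scalings and leaving out each liver.

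The 8 genes, the 24 gene lists and the measures were chosen with earlier results of these data known, and the motifs after the values were seen. Of 200 listed symbols, 194 were in the table, and where a symbol had more than 1 row the one with the highest mean was used. The genes named are the 8, in each list the gene with the highest mean and that with the largest fold range among those with a mean of at least 1 FPKM, Srebf1, Nr1h3, Ppara, Insig1 and Saa1, and the 3 most like each gene with a 1.5-fold range. Others named beyond that (the remaining genes listed at 0, Elovl7, Fads6, Scd2, Hsd17b12, Hacd2, Hacd3, Agpat3, Per1 and Alas2, and genes sharing a span) were chosen after their values were seen. Some further genes were taken out of the lists altogether and are not reported here.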

Additional observations from a re-analysis of the deposited data

Results flagged for a closer look

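In a group of 4 livers, a gene was marked where 1 liver stood apart from the nearest other by a share of the whole range of log2(FPKM + 1) above Dixon's 95% critical value. Chance marks about 1 in 20 groups, and 5.46% of all expressed genes were marked here. Of the 8 genes, Elovl3 was marked, with liver 2 below the others at a ratio of 0.925. Median-ratio scaling left it marked at 0.853, whereas scaling to a common total brought it to 0.785, under the threshold, and there Elovl2 was marked in its place at 0.913, with liver 3 low. Of 164 expressed genes in the lists, the set included, 11 were marked, of which the 5 named in the text are given here. The elongation partner Hacd1 was marked for its low value in liver 3, at 0.860, but not under either alternative scaling, at 0.765 and 0.690. Lect2 and Letm1, selected for likeness to Elovl3, were marked at 0.934 and 0.874, both low in liver 2, which follows from that selection and adds no further result, and Lect2 came to 0.819 with scaling to a common total, under the threshold. Thrsp was marked at 0.882 for its high value in liver 3. Apoa1, the hepatocyte marker with the highest mean, was marked at 0.870 for liver 4, where it had 15343 FPKM against 11922 to 12320 FPKM in the other livers. Liver 4 has the largest sum of FPKM, and the ratio of Apoa1 fell under the threshold with both scalings, at 0.803 and 0.729. Sox9, a cholangiocyte marker, was marked at 0.841 for its low value in liver 4.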

How the results depend on the processing

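No paired analysis was possible because all samples belong to 1 group. Of 94 alternative values computed, 91 stayed within the spread between livers or, for counts and medians, within 1.5 times the main value. For levels and log2 ratios without 1 liver this was fixed in advance, since leaving out 1 of 4 values cannot move a mean by 1 SD. The count of 91 is therefore no measure of robustness. Leaving out 1 liver gave a median SD of the set from 0.11 to 0.23, and the lowest came without liver 3 (all expressed genes: 0.14). It gave from 1 to 2 genes with a 1.5-fold range: without liver 2 only Elovl5 remained, and without liver 3 only Elovl3. The number with an outlying liver was 1 under each pseudocount, filter and scaling (groups of 3 livers were not tested), but the gene changed from Elovl3 to Elovl2 with scaling to a common total. All 8 genes had a mean above 5 FPKM, so filters changed only the background. The order by mean was the same under both scalings and without each liver in turn. Rescaling to a common total raised the median of expressed genes by 0.74 in liver 4 and by 0.85 to 0.87 in the others on the log2 scale. Nothing here could show an effect of diet or RvD1. The depth is an estimate, so no counting error was computed.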
